A study of Mus musculus with 4 samples.

Results

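The phagocytic effectors of disease-associated microglia (DAM) are a set of 10 genes: Itgax, Cd9, Gpnmb, Spp1, Lgals3, Clec7a, Axl, Mertk, Gas6 and Pros1. They were found by their symbols in the feature table of 32285 genes, and 9 of the 10 were measured. Clec7a, the β-glucan receptor Dectin-1, was not analysed here. Nuclei of GCLC-KO cerebral cortex were profiled. In these mice a floxed Gclc allele (Gclc tm1a on a C57BL/6NTac background) was crossed with CaMKII-Cre, a driver active in forebrain excitatory neurons and not in microglia. Gclc encodes the catalytic subunit of the enzyme that makes the glutathione precursor γ-glutamylcysteine. The younger animals gave 2 libraries at 3 months (3M-1, 3M-2) and the older ones 2 at 6 months (6M-1, 6M-2), and runs of 4 values below keep that order. No animal was treated and all carried the knockout, so no wild-type value stands beside these levels. The dissected cortex was chosen for its many rod-shaped microglia, which limits the samples as a picture of the whole cortex.

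DAM are microglia that lower their surveillance genes and turn on genes for lipid handling, lysosomes and uptake of debris in diseased brain tissue. Engulfment of dying cells by microglia uses the receptor tyrosine kinases Axl and Mertk, which bind phosphatidylserine on the target through soluble bridging proteins. Gas6 and protein S (Pros1) are such bridging proteins, and they need not serve both receptors alike. Itgax (the integrin αX chain, CD11c), the tetraspanin Cd9, the transmembrane glycoprotein Gpnmb, osteopontin (Spp1) and galectin-3 (Lgals3) are widely used as DAM markers and have roles in adhesion, lysosomes and binding of damaged membranes.

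The sequences just upstream of Itgax, Gpnmb and Spp1 are shown first. Most UMIs of these genes in microglia-like nuclei lay in nuclei that carried other DAM genes, as described below. The same held for Lgals3 and Cd9, whose windows are not printed. They are RefSeq promoters of build GRCm38.p6, the 250 bases before the annotated start, read 5′ to 3′ on the gene's strand, and capitals mark a motif match. Itgax lies on chromosome 7 (chr7:128129300-128129549, + strand), Gpnmb on chromosome 6 (chr6:49036268-49036517, + strand) and Spp1 on chromosome 5 (chr5:104434861-104435110, + strand).
Itgax: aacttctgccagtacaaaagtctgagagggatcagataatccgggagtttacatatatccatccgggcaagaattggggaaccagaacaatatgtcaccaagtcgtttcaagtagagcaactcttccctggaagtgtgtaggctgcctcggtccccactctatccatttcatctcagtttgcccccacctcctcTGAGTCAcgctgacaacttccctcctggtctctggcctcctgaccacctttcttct
Gpnmb: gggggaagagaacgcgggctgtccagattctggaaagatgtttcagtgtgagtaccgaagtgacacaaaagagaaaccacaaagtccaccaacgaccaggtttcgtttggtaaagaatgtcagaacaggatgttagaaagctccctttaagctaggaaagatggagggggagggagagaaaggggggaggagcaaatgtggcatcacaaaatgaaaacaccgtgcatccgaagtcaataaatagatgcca
Spp1: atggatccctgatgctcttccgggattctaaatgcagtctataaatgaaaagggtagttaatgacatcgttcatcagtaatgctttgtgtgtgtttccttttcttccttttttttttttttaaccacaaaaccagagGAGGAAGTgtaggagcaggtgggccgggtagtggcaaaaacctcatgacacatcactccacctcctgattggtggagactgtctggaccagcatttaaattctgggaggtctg
The letters TGACTCA, a core of AP-1 sites, were searched on both strands and matched once in the Itgax window (TGAGTCA on the printed strand, first base 56 before the start), and 4.46% of 32851 promoter windows of the same length held them. GAGGAAGT, a core bound by the myeloid factor PU.1, matched in the Spp1 window with its first base 113 before the start, against 2.44% of all windows. The lysosomal E-box CACGTG (6.02% of all windows) and the M-box letters CATGTG (12.3%) were in none of these 3 windows, and CATGTG was in that of Cd9. All 9 genes had a RefSeq promoter, Spp1 having 2, and a match describes letters only. Over these 10 windows TGACTCA, GAGGAAGT and CATGTG were each in 1, and CACGTG was in 0.

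Sequencing gave 63429297 to 71255054 UMIs (tags that mark single RNA molecules) per library. After the study's filter, 30515 of 30784 nuclei were kept. Nuclei were gated into classes by marker genes that include none of the 9 genes, and 451, 342, 633 and 517 nuclei were microglia-like (1943 in all). Library 3M-2 had the fewest UMIs in this class, 558396, and 6M-1 the most, 1203924. The 16 microglial markers summed to between 15643 and 18744 CPM (UMIs per 1000000 UMIs of the class in that library) in these nuclei, and to between 219 and 342 CPM in OPC-like nuclei (oligodendrocyte precursors). They summed to between 62.6 and 426 CPM in astrocyte-like nuclei, a small class of 48, 74, 41 and 49 nuclei. Markers of perivascular macrophages, the nearest other phagocytes, summed to between 8.95 and 21.6 CPM in microglia-like nuclei, with 2 of 8 at 0. Gclc itself had 33.5 to 42.7 CPM in excitatory neuron-like nuclei. Reads at the 3′ end need not report the deleted part, so this is no check of the knockout. Between pairs of libraries 93 barcodes were shared, and none of them among microglia-like nuclei.

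The 9 genes fell into different patterns across the 6 classes with enough nuclei, which the question of where each is transcribed addresses. Among the gated classes, Itgax had its highest level in microglia-like nuclei (119 UMIs, against 12 in excitatory neuron-like nuclei), Mertk and Axl were shared with astrocyte-like nuclei, Cd9 and Gpnmb with OPC-like nuclei, Pros1 was highest in microglia-like nuclei, and Gas6 was spread over neurons and glia. The sums were compared with edgeR's quasi-likelihood test with the library as a block, and p-values were adjusted by Benjamini-Hochberg over 14142 genes. The filter on low counts kept 7 of the 9 genes, leaving out Spp1 and Lgals3, and of the 35 pairs of a gene with another class 27 were higher in microglia-like nuclei, 4 were lower and 4 did not pass. Itgax met this filter only through its microglia-like sums. The share of all genes called was 42.7% against astrocyte-like, 57.9% against OPC-like, 56.8% against oligodendrocyte-like, 75.8% against excitatory and 73.6% against inhibitory neuron-like nuclei, so a called pair is a common event here. The scaling of the sums matters in this comparison: the edgeR fit rescales libraries with TMM factors, and against scaling by library size alone (chosen after seeing the data) it moved the median gene by −0.19 (astrocyte-like), −0.27 (OPC-like), −0.43 (oligodendrocyte-like), −0.55 (excitatory) and −0.38 (inhibitory) on the log2 scale. CPM follow library size alone, so fitted differences near 0 can have another sign than the CPM. Of the genes called against oligodendrocyte-like nuclei, 48.1% were higher in microglia-like nuclei with TMM and 69.6% without, and the split also moved by over 10 percentage points against OPC-like (47.8% to 60.1%), excitatory (48.8% to 65.6%) and inhibitory neuron-like nuclei (48.1% to 61.7%).

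**Figure D1:**
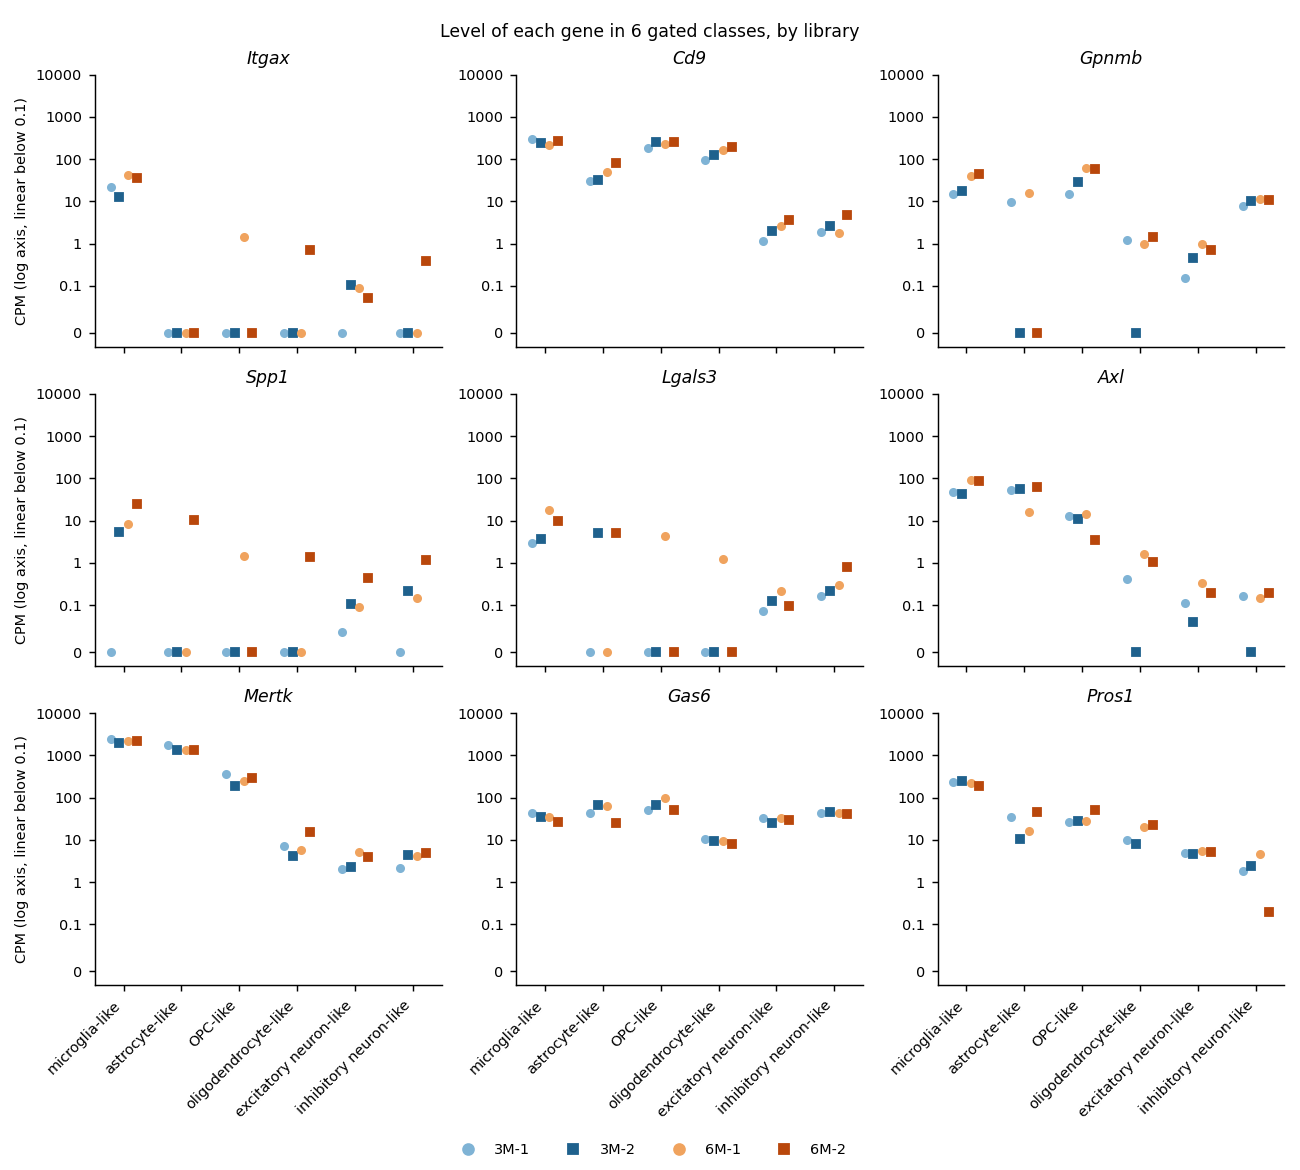
Level of the 9 genes in 6 gated classes, in CPM on a log axis that is linear below 0.1, with a point for each of the 4 libraries. Itgax points lie at 12.5 to 41.5 CPM in microglia-like nuclei and at or below 1.45 CPM in the others, and Gas6 points lie between 8.09 and 98.3 CPM in every class.

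Of the surface markers, Itgax (chr7:128129547-128150657, + strand, GRCm38) had 22, 7, 50 and 40 UMIs in microglia-like nuclei, or 21.5, 12.5, 41.5 and 36.1 CPM. In the 212 astrocyte-like nuclei it had 0 UMIs in all 4 libraries, which against a floor of 3 UMIs over the 4 libraries made it at least 7.27-fold higher in microglia-like nuclei. OPC-like nuclei held 1 UMI of Itgax, for a ratio of 84.0 with a counting interval of 14.8 to 3343. Every other class was far below the microglia-like range, and the order among them rested on single UMIs.

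Cd9 (chr6:125460266-125494791, − strand), which organizes membrane proteins at sites of fusion and adhesion, had 305, 244, 212 and 273 CPM in microglia-like and 178, 247, 224 and 255 CPM in OPC-like nuclei. The ranges overlapped, and the log2 difference was −0.06 (SE 0.16, edgeR adjusted p = 0.78), within its error, and its sign turned with library sizes alone (0.22, adjusted p = 0.26). Oligodendrocyte-like nuclei had less, 96.3 to 190 CPM, a log2 difference of 0.44 (SE 0.15, edgeR adjusted p = 0.011) that did not pass without 3M-1 (log2 0.21, adjusted p = 0.18) or without the library block. Astrocyte-like nuclei had 47.8 ± 24.4 CPM (SD, n = 4), and neurons less than 5 CPM in each library. Cd9 overlaps the antisense gene Gm28809 and the transcript Gm26728, and their reads are told apart only if counted by strand, which the sources used here do not state.

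Gpnmb (chr6:49036546-49070929, + strand), a glycoprotein of lysosomes and the cell surface, had 14.6, 17.9, 40.7 and 43.3 CPM in microglia-like nuclei and 15, 27.9, 62.2 and 59.6 CPM in OPC-like nuclei. OPC-like nuclei were the higher of the 2 in each of the 4 libraries, with a log2 difference for microglia-like over OPC-like nuclei of −0.71 (SE 0.28, edgeR adjusted p = 0.032). That call passed in 5 of 13 alternative settings, failed with library sizes alone (−0.44, adjusted p = 0.19) and rested on each of 3M-2, 6M-1 and 6M-2, without which the log2 differences were −0.64, −0.62 and −0.66 with adjusted p from 0.081 to 0.15. Inhibitory neuron-like nuclei had 7.65 to 11.6 CPM, below the microglia-like nuclei of every library (log2 1.11, SE 0.26, edgeR adjusted p = 3.7e-04). Astrocyte-like nuclei held 4 UMIs in all (log2 2.15 for microglia-like over astrocyte-like, SE 0.71, edgeR adjusted p = 0.014), and that call failed without 6M-2 (1.41, adjusted p = 0.17). Over all nuclei, inhibitory neuron-like nuclei held 30.5% of all Gpnmb UMIs, against 16.3% in microglia-like nuclei.

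Spp1 (chr5:104435118-104441050, + strand) and Lgals3 (chr14:47367751-47386160, + strand), whose proteins are secreted, were sparse. Spp1 had 0, 3, 10 and 27 UMIs in microglia-like nuclei, so 6M-2 alone held most of them. Lgals3 had 3, 2, 22 and 11 UMIs there, with most in the 6-month libraries. In astrocyte-like nuclei each had 2 UMIs in all, with ratios of 3.67 (counting interval 0.951 to 31.3) for Spp1 and 3.48 (0.900 to 29.8) for Lgals3, so a difference from astrocyte-like nuclei was not detectable at this depth. Over OPC-like nuclei, with 1 and 3 UMIs, the ratios were 28.2 (4.78 to 1142) for Spp1 and 8.94 (2.84 to 45.2) for Lgals3. Excitatory neuron-like nuclei had means of 0.172 and 0.132 CPM, against 9.51 and 8.68 CPM in microglia-like nuclei.

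**Figure D2:**
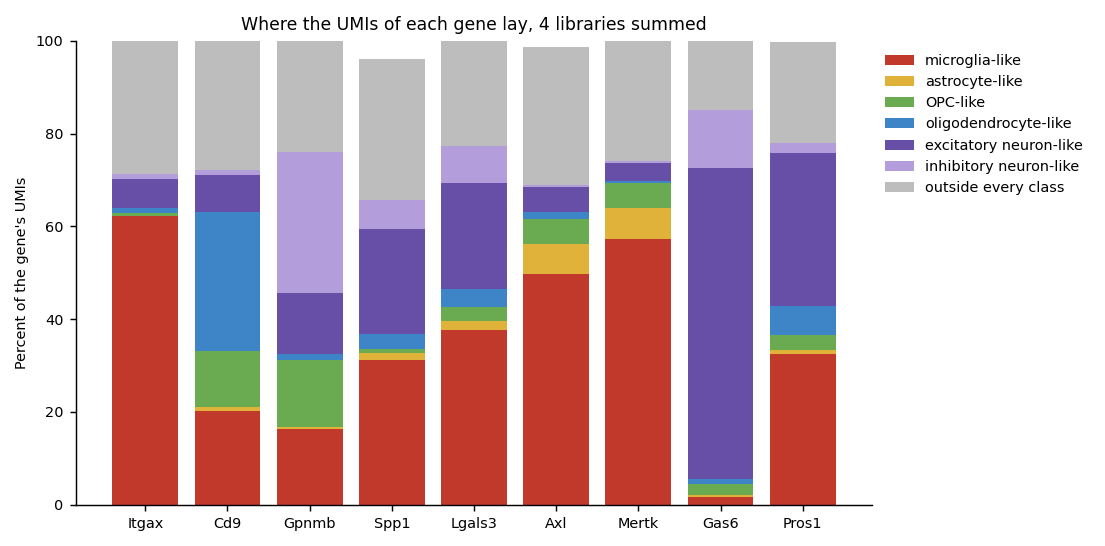
Share of each gene's UMIs, in percent, that lay in each gated class or outside every class, with the 4 libraries summed. Microglia-like nuclei hold 62.3% of Itgax UMIs but 1.71% of Gas6 UMIs, and the part of a bar missing to 100% lay in classes of under 30 nuclei.

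Of the receptors, Mertk (chr2:128698956-128802894, + strand) had 2482, 1925, 2171 and 2212 CPM in microglia-like nuclei and 1738, 1336, 1313 and 1365 CPM in astrocyte-like nuclei. The ranges did not overlap, but the log2 difference of 0.42 (SE 0.19) missed the threshold (edgeR adjusted p = 0.072), and it passed in 4 of 13 alternative settings, among them leaving out 3M-1 (0.48, adjusted p = 0.032) and library sizes alone (0.60, adjusted p = 0.0083). OPC-like nuclei followed at 193 to 372 CPM, and the 3 remaining classes were at 15.1 CPM or less in every library. Mertk overlaps the antisense gene Gm14011, with the same limit as Cd9.

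Axl (chr7:25757273-25788705, − strand) had 46.8, 43.0, 93.9 and 84.8 CPM in microglia-like and 54.2, 57.4, 16 and 61.6 CPM in astrocyte-like nuclei. Astrocyte-like values were the higher of the 2 at 3 months and the lower at 6 months, the 6M-1 value resting on 2 UMIs, and the overall log2 difference of 0.17 (SE 0.35, edgeR adjusted p = 0.73) was within its error and turned to −0.23 without 6M-1. Axl in OPC-like nuclei was 3.40 to 14.5 CPM, and 3 UMIs in all inhibitory neuron-like nuclei gave a ratio of 538 (counting interval 182 to 2625).

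The bridging proteins differed from each other. Pros1 (chr16:62854307-62929346, + strand) had 241, 251, 220 and 186 CPM in microglia-like nuclei, against 26.8 to 51.1 CPM in OPC-like nuclei, the next class (log2 2.50, SE 0.25, edgeR adjusted p = 2.6e-10). Gas6 (chr8:13465374-13494490, − strand) had 34.9 ± 6.51 CPM (SD, n = 4) in microglia-like, 67.0 ± 22.2 in OPC-like, 50.5 ± 19.5 in astrocyte-like, 43.5 ± 2.77 in inhibitory and 30.3 ± 3.66 in excitatory neuron-like nuclei. It was lower in microglia-like than in OPC-like nuclei by 1.20 on the log2 scale (log2 −1.20, SE 0.20, edgeR adjusted p = 4.7e-06) and than in inhibitory neuron-like nuclei (log2 −0.71, SE 0.17, adjusted p = 3.6e-04), the second call failing with library sizes alone (−0.32, adjusted p = 0.078). The fitted difference from excitatory neuron-like nuclei (log2 −0.35, SE 0.16, edgeR adjusted p = 0.049) turned with library sizes alone (0.20, adjusted p = 0.27), passed in 4 of 13 alternative settings and failed without 3M-1 (−0.40, adjusted p = 0.056), without 6M-1 (−0.33, adjusted p = 0.12) and without 6M-2 (−0.26, adjusted p = 0.23), so it shows no order of these classes. Oligodendrocyte-like nuclei, at 9.42 ± 1.02 CPM, were lower than microglia-like nuclei in Gas6 (log2 1.47, SE 0.23, adjusted p = 1.3e-06). Gas6 overlaps Tmem255b on the opposite strand, again with the limit given for Cd9.

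By likeness of pattern over the 24 sums of class and library, the gene closest to Mertk among 18285 was Zfp36l2 (Pearson r = 0.98) followed by Axl (r = 0.98), and the closest to Axl was Mertk. The nearest to Itgax were Ly9, Ctla2b and Arl11 (r = 0.97 to 0.98), to Cd9 Wipf1, Tns3 and Gm13708 (0.98 to 0.99), to Pros1 Traf5, Col27a1 and Lhfpl2 (0.92), to Gpnmb Map3k1, Gm7030 and Fam114a1 (0.89 to 0.91), and to Gas6 P3h3, Klf12 and Adamts10 (0.91 to 0.93). Spp1, with few UMIs, had no such list, nor did Lgals3. The sums of a library share its mouse and its depth, and these values only describe the levels.

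Within the microglia-like nuclei, the genes were next compared between nuclei gated as DAM and the others. The gate required at least 3 UMIs from at least 2 of 10 DAM genes that are none of the 9 (Lpl, Cst7, Csf1, Igf1, Myo1e, Fam20c, Lilrb4a, Ccl3, Cd63 and Ctsz), and it took 104, 58, 171 and 123 nuclei. These 456 nuclei were 23.5% of the microglia-like nuclei and held 29.0% of their UMIs, with a median depth of 2264 UMIs against 1754 in the others. Perivascular macrophage markers summed to between 0 and 41.3 CPM in DAM-gated nuclei, with 4 of 8 at 0, and to between 11.5 and 21.4 CPM in the others, with 2 of 8 at 0. Markers of 3 other classes were higher in DAM-gated nuclei in every library. Endothelial markers summed to between 72.1 and 152 CPM (5 of 8 at 0) against 46.8 to 60.0 in the others (2 of 8 at 0), oligodendrocyte markers to between 123 and 391 against 118 to 246 CPM (0 of 12 at 0 in both), and OPC markers to between 73.0 and 246 (1 of 8 at 0) against 48.1 to 79.7 CPM (0 of 8 at 0). The part of these lists in the differences between the gates was not tested. Gpnmb, Itgax, Cd9 and Axl rose in them, whereas Mertk, Gas6 and Pros1 did not pass the test. DAM-gated nuclei held 93.4% of the Gpnmb UMIs, 87.5% of Spp1, 86.8% of Lgals3, 67.2% of Itgax, 51.7% of Cd9 and 49.5% of Axl, but 33.8% of Gas6, 29.4% of Pros1 and 27.5% of Mertk.

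Gpnmb had 39.6, 80.2, 114 and 146 CPM in DAM-gated nuclei, and 5.35, 0, 2.53 and 2.52 CPM in the others. All 4 libraries were higher in the DAM-gated nuclei with no overlap, and the log2 fold change was 4.93 (SE 0.41, edgeR adjusted p = 1.1e-08). Its 114 UMIs there stood against 8 in more than 3 times as many other nuclei, 1487 of them.

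Itgax had 68.5, 56.1, 77.3 and 69.9 CPM in DAM-gated and 4.01, 0, 22.8 and 22.7 CPM in other nuclei. The 4 DAM-gated values were close, with both 6-month values slightly the higher, and all lay above the others (log2 2.30, SE 0.37, edgeR adjusted p = 1.5e-04). The 6-month libraries had more Itgax outside the gate (18 UMIs each) than the 3-month libraries (3 and 0 UMIs).

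Cd9 had 713, 457, 300 and 451 CPM in DAM-gated and 154, 182, 166 and 203 CPM in other nuclei, a log2 fold change of 1.39 (SE 0.16, edgeR adjusted p = 2.2e-06). Axl had 90.1, 104, 138 and 137 CPM against 30.8, 25.4, 70.9 and 64.2 CPM (log2 1.23, SE 0.20, edgeR adjusted p = 2.1e-04). For both genes every DAM-gated value lay above every other value. These 4 calls held in each of 16 alternative settings, with log2 fold changes of 3.19 to 5.72 for Gpnmb, 1.95 to 2.71 for Itgax, 1.01 to 1.58 for Cd9 and 0.84 to 1.39 for Axl, including the gate set on nuclei thinned to equal depth.

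The call share in this comparison was 9.01% of 7612 genes tested, and 4 of the 7 effectors that passed the filter on low counts were called, all higher. Gpnmb and Itgax met that filter only through their DAM-gated sums, where they were higher, so this count is not read against the share. Spp1 and Lgals3 did not pass the filter. Without a filter on low counts, Spp1 (log2 3.79, SE 0.61, edgeR adjusted p = 7.2e-08) and Lgals3 (log2 3.68, SE 0.61, adjusted p = 2.2e-07) were higher too, making 6 of 9 called, where 3.86% of 19944 genes were called. That fit also holds genes with very few UMIs, which can hardly be called. The count of 6 is thus not read against its share either. Spp1 had 0, 2, 8 and 25 UMIs in DAM-gated and 0, 1, 2 and 2 in other nuclei, so 3M-1 gave no value for it. Lgals3 had 3, 2, 19 and 9 UMIs against 0, 0, 3 and 2.

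**Figure D3:**
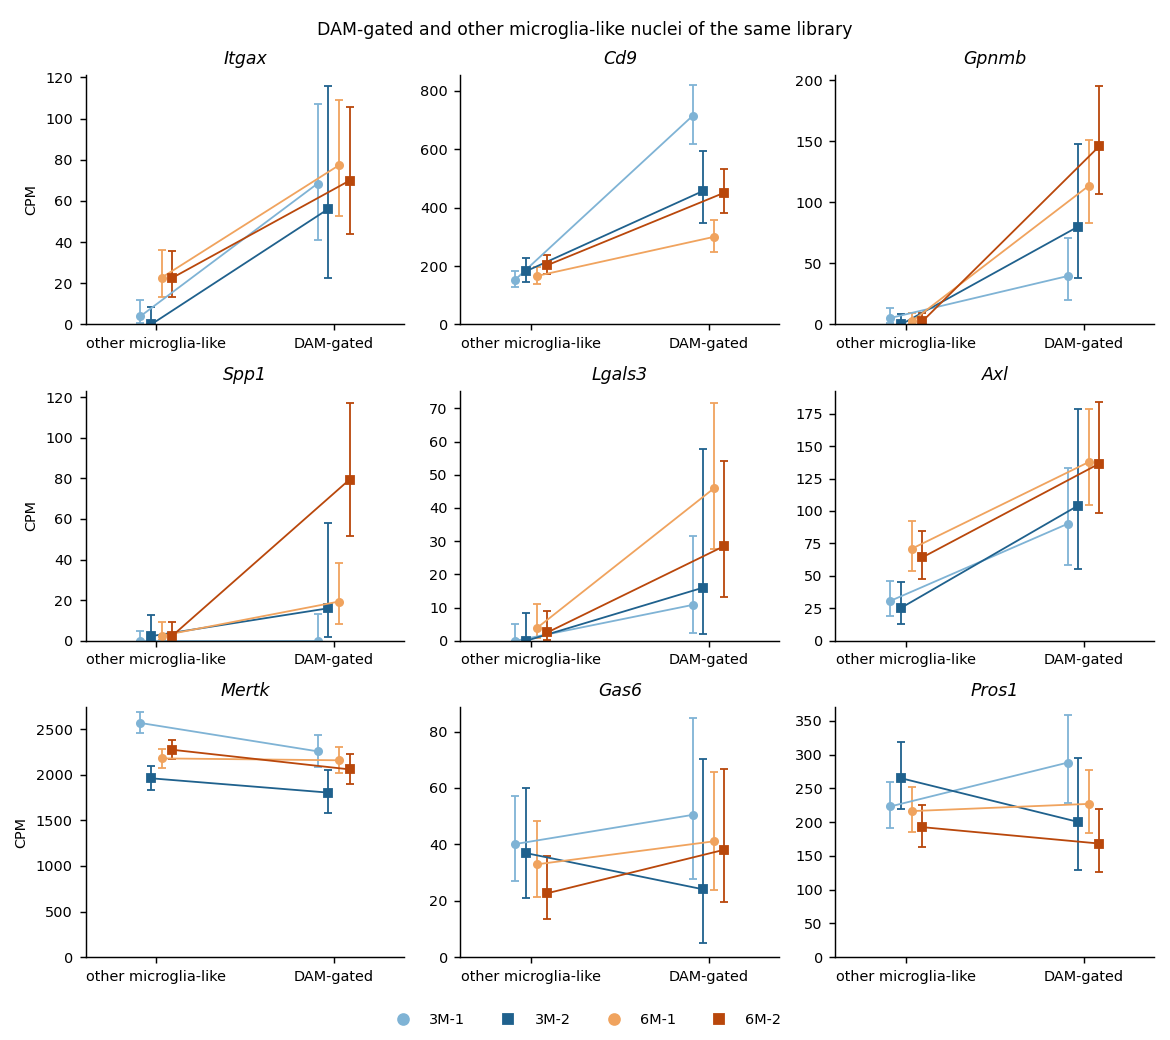
Level of the 9 genes, in CPM from 0, in other microglia-like and DAM-gated nuclei, with a line joining the 2 values of each library and bars for 95% Poisson counting intervals. The lines of Gpnmb, Itgax, Cd9 and Axl climb in all 4 libraries, and those of Pros1 and Gas6 run in both directions.

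The receptor Mertk had 2256, 1803, 2158 and 2058 CPM in DAM-gated and 2567, 1960, 2178 and 2273 CPM in other nuclei. It was lower in each of the 4 libraries by a small amount (log2 −0.13, SE 0.08, edgeR adjusted p = 0.44), and it passed where the DAM gate was set on nuclei thinned to 1000 UMIs (−0.26, adjusted p = 0.047) or graph clusters took the place of the microglial gate (−0.45, adjusted p = 5.6e-04). Pros1 had 221 ± 50.9 CPM in DAM-gated and 224 ± 30.2 in other nuclei (SD, n = 4; log2 0.00, SE 0.19, edgeR adjusted p = 1.00), and it passed with graph clusters (−0.34, adjusted p = 0.047). Gas6 had 38.4 ± 10.9 against 33.1 ± 7.59 CPM (log2 0.30, SE 0.28, edgeR adjusted p = 0.63).

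Whether this difference was itself different at 6 months was tested as an interaction. None of the 8 effectors tested passed with edgeR (2 at an unadjusted p under 0.05), beside 0.309% of 8725 genes called. DESeq2 called 0 of 8725 genes (112 at an unadjusted p under 0.05), so the lack of effector calls there adds nothing. The 2 effectors at an unadjusted edgeR p under 0.05 were Itgax (log2 −2.82, SE 0.79, edgeR adjusted p = 0.16) and Cd9 (log2 −0.86, SE 0.24, adjusted p = 0.16), with a smaller excess in DAM-gated nuclei at 6 months. Without 3M-2, Cd9 passed (−1.20, adjusted p = 0.039), whereas without 3M-1 its value was −0.25 (adjusted p = 0.87). The Itgax value rests on 3 and 0 UMIs in the other nuclei at 3 months, and it ran from −6.01 to −2.33 with a library left out and was −1.08 with the DAM gate on thinned nuclei.

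The other genes of these pathways come from fixed lists by function, chosen with earlier results of these data known. They are given beside a median of 0.00 and a call share of 9.01% over all genes tested. The 10 gating genes rose by construction. Of 19 other DAM genes 18 were tested, and 12 were higher in DAM-gated nuclei, none was lower, and the median was 0.84. The largest were Ccl4, a chemokine (log2 3.33, SE 0.23, adjusted p = 3.5e-10), the pyrophosphate transport protein Ank (1.79, SE 0.18, adjusted p = 3.3e-07), Cd52 (1.53, SE 0.30, adjusted p = 0.0011) and Hif1a (1.52, SE 0.17, adjusted p = 1.4e-06). Of 27 other efferocytosis receptors, bridges and engulfment genes 17 were tested, and 1 was higher and 4 were lower, with a median of −0.17. The 1 that rose was Cd300lf, a phosphatidylserine-binding receptor (1.86, SE 0.23, adjusted p = 6.9e-06). Among the 4 that fell were Stab1, a scavenger receptor (−0.73, SE 0.17, adjusted p = 0.0055), the Fc receptor Fcgr3 (−0.60, SE 0.16, adjusted p = 0.018) and Elmo1, which works with Dock1 upstream of Rac (−0.48, SE 0.10, adjusted p = 0.0018).

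Of 8 genes of Clec7a signalling 6 were tested and Plcg2 alone was called, lower (log2 −0.38, SE 0.12, adjusted p = 0.044). A single call among 6 genes is little beside the call share of 9.01% over all genes. None of the 4 tested of 7 integrin and osteopontin partners, and none of the 6 tested of 7 tetraspanins, passed with edgeR, with medians of 0.14 and −0.26. Of the 10 homeostatic microglial genes 5 were lower, among them Tmem119 (log2 −1.38, SE 0.29, adjusted p = 0.0020), Selplg (−1.03, SE 0.13, adjusted p = 8.6e-06), Siglech (−0.91, SE 0.10, adjusted p = 2.1e-06) and P2ry12 (−0.73, SE 0.11, adjusted p = 5.1e-05). All adjusted p in these lists are from edgeR over the 7612 genes.

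**Figure D4:**
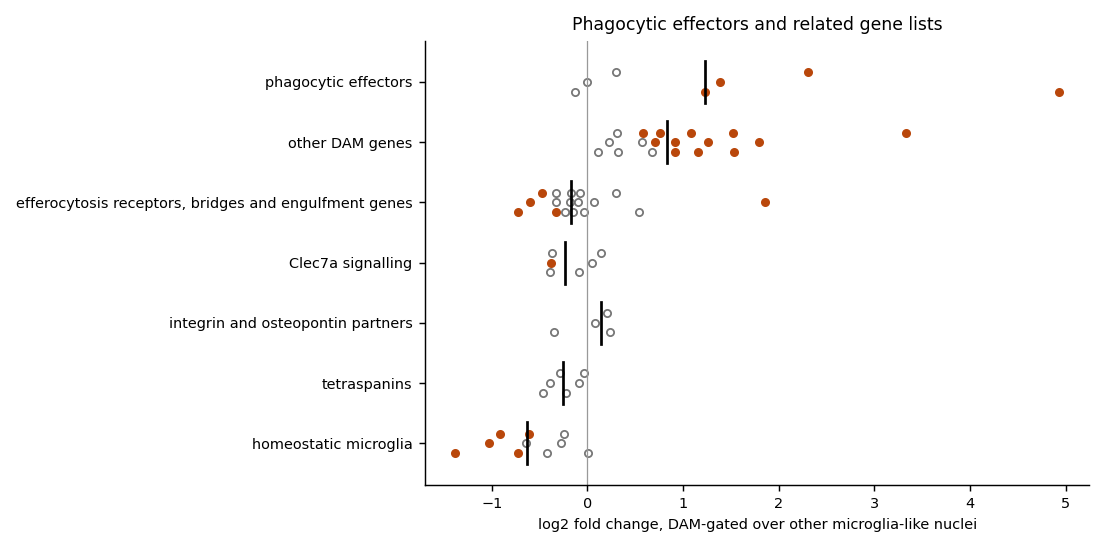
Log2 fold change of DAM-gated over other microglia-like nuclei for the effectors and 6 related lists, 1 point per gene tested, filled where the edgeR adjusted p was under 0.05, with a bar at each median. The median is 0.84 for other DAM genes and −0.63 for homeostatic genes.

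Between the ages, the microglia-like nuclei of both 6-month libraries lay above those of both 3-month libraries in Itgax, Gpnmb, Spp1, Lgals3 and Axl. None of the 8 effectors tested passed the main test, however. With edgeR 0 of 8 were called (4 at an unadjusted p under 0.05), with DESeq2 also 0, and 0.236% of 11005 genes were called. Of the 8, 4 had both 6-month values above both 3-month values, beside 20.9% of the genes tested, and 1 (Pros1) had both below, beside 17.3%. Of those 4, Lgals3 met the filter on low counts only through its 6-month libraries, so its place among them is no support for a rise. Markers of 5 other cell types were also higher in the microglia-like nuclei of both 6-month libraries. Astrocyte markers (0 of 12 at 0) summed to 372 and 279 CPM at 3 months and to 530 and 505 CPM at 6 months, oligodendrocyte markers (0 of 12 at 0) to 119 and 188 against 241 and 287 CPM, and endothelial markers (2 of 8 at 0) to 53.6 and 66.3 against 83.1 and 77.5 CPM. Mural and fibroblast markers (2 of 10 at 0) lay between 15.6 and 24.9 CPM and perivascular macrophage markers (2 of 8 at 0) between 8.95 and 21.6 CPM over the libraries. The part of these lists in the differences between the ages was not tested.

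Gpnmb was 16.3 ± 2.32 CPM at 3 months and 42.0 ± 1.82 at 6 months (SD, n = 2 each; log2 1.36, SE 0.35, edgeR adjusted p = 0.15). Axl was 44.9 ± 2.71 and 89.3 ± 6.44 CPM (log2 0.95, SE 0.24, edgeR adjusted p = 0.15). The labels give the replicate number of a library as its batch at both ages, and with that number as a replicate block Gpnmb (log2 1.35, SE 0.39, edgeR adjusted p = 0.044) and Axl (0.96, SE 0.28, adjusted p = 0.043) passed, beside 1.37% of genes. The deviations of same-numbered libraries correlated over genes at only 0.01 in these nuclei, so the pairing has little shared pattern behind it.

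Itgax was 17.0 ± 6.31 and 38.8 ± 3.86 CPM (log2 1.08, SE 0.36, edgeR adjusted p = 0.32), and Lgals3 3.25 ± 0.464 and 14.1 ± 5.91 CPM (log2 2.09, SE 0.65, edgeR adjusted p = 0.28). Spp1 was not tested for lack of counts, and passed with no filter on low counts (log2 2.95, SE 0.69, edgeR adjusted p = 0.0062), where Gpnmb passed as well (adjusted p = 0.042). Library 6M-2 also held the most Spp1 in other classes. Excitatory neuron-like nuclei had 0.0437, 0.106, 0.0951 and 0.445 CPM, and inhibitory neuron-like nuclei 0, 1, 1 and 6 UMIs. All 4 UMIs in oligodendrocyte-like and all 2 in astrocyte-like nuclei lay in 6M-2, and the 1 in OPC-like nuclei in 6M-1. The part of this library in the Spp1 difference was not tested. With no filter 146 genes were called in all, against 26 in the main fit. Without 3M-2, which leaves only 3M-1 at 3 months, the log2 differences were 1.46 for Gpnmb and 0.88 for Axl. The count of effectors called was thus 0 in the main fit, 2 with no filter and 2 with the replicate block.

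Cd9 was 305 and 244 CPM at 3 months against 212 and 273 at 6 months, and Mertk 2482 and 1925 against 2171 and 2212 CPM, with overlapping ages in both (log2 −0.22, SE 0.18, and −0.04, SE 0.16; edgeR adjusted p = 0.80 and 0.98). Pros1 was 246 ± 6.93 and 203 ± 24.3 CPM (log2 −0.30, SE 0.17, edgeR adjusted p = 0.64), and Gas6 38.5 ± 6.29 and 31.4 ± 6.13 CPM (log2 −0.35, SE 0.31, adjusted p = 0.82). DAM-gated nuclei were 23.1% and 17.0% of the microglia-like nuclei at 3 months and 27.0% and 23.8% at 6 months, and how far this share bears on the sums was not tested. The gate counts raw UMIs, and 3M-2, with the lowest share, was also the shallowest (median 1484 UMIs, against 1727 to 2248 in the others). The part of depth in this share was not tested. Within the gates, Itgax, Axl, Spp1 and Lgals3 had higher CPM in both 6-month libraries in DAM-gated and in other nuclei. Outside the gate Spp1 and Lgals3 had at most 3 UMIs in a library. Gpnmb was higher only in DAM-gated nuclei, with 4 UMIs at most in the others. Cd9 was lower in both 6-month libraries in DAM-gated nuclei, and Gas6 and Pros1 were lower in the others. The share of all genes with such an order within a gate was not computed.

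**Figure D5:**
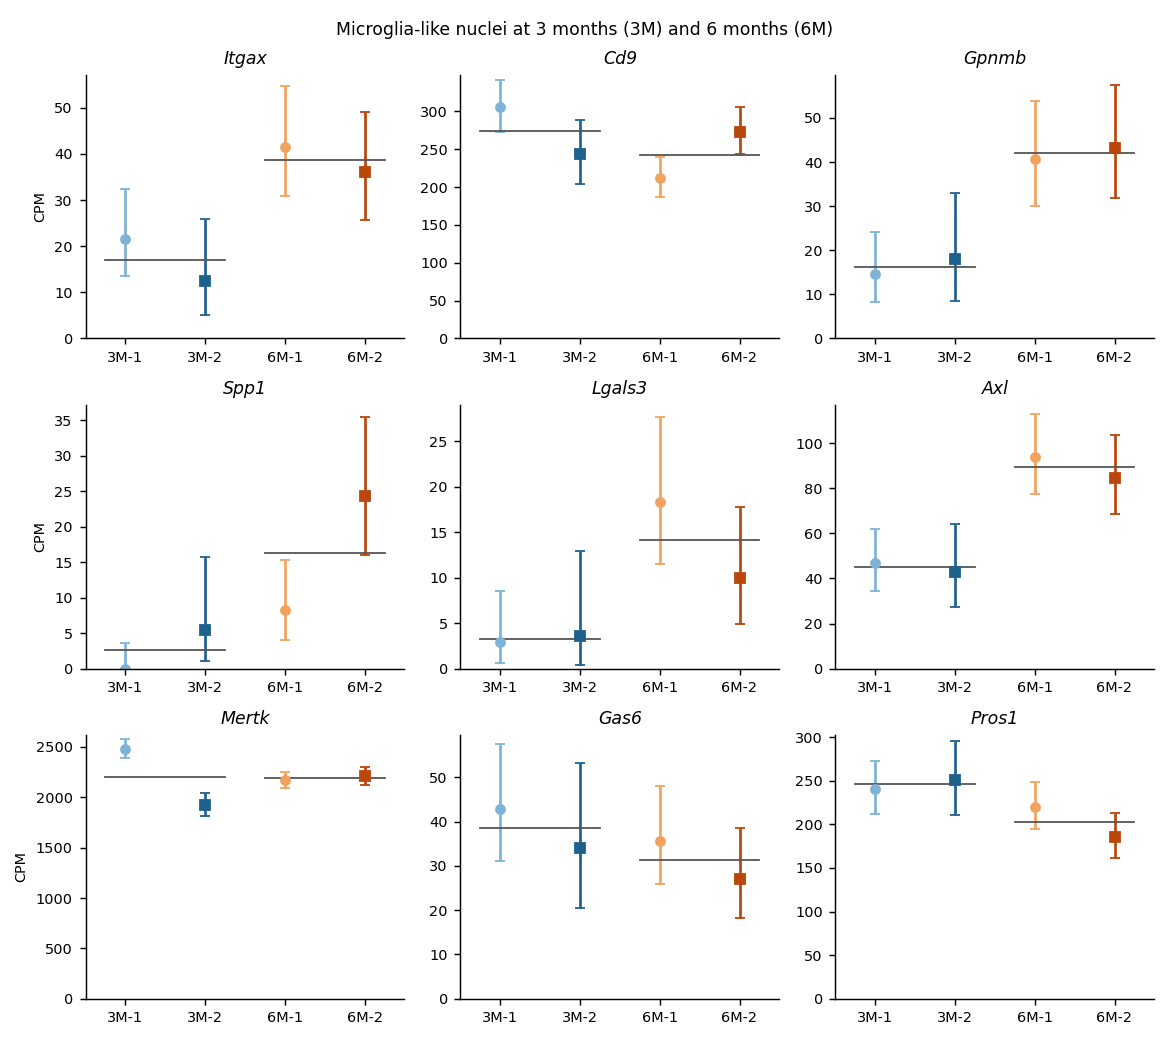
Level of the 9 genes in microglia-like nuclei, in CPM from 0, by library, with 95% Poisson counting intervals as bars and the mean of each age as a horizontal line. Both 6-month points lie above both 3-month points for Itgax, Gpnmb, Spp1, Lgals3 and Axl, and the ages overlap for Cd9, Mertk and Gas6.

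Of the related lists, Apoe, a lipid carrier among the 19 other DAM genes, was the 1 gene that rose with age in microglia-like nuclei, from 178 and 324 to 1562 and 1232 CPM (log2 2.48, SE 0.23, edgeR adjusted p = 3.8e-04). Apoe is also abundant in astrocytes, and the part in its rise of the astrocyte markers, at the sums given above, was not tested. The median of that list was 0.08, of the efferocytosis list (19 of 27 tested) 0.03 and of the homeostatic list −0.34, against 0.00 over all genes. No other list gene passed in the main edgeR fit. With the replicate block 6 list genes passed, beside 1.37% of all genes.

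In the other classes, none of 22 tested pairs of an effector and a class passed between the ages with edgeR (6 at an unadjusted p under 0.05) or with DESeq2. The share of genes called was 0.0248% in astrocyte-like, 0.0% in OPC-like, 0.106% in oligodendrocyte-like, 0.0% in excitatory and 0.0% in inhibitory neuron-like nuclei, with 445, 1127 and 676 genes at an unadjusted p under 0.05 in the 3 classes without a call. Gpnmb in OPC-like nuclei was 21.5 ± 9.09 CPM at 3 months and 60.9 ± 1.85 at 6 months (log2 1.61, SE 0.34, edgeR adjusted p = 0.49). It passed with no filter on low counts (1.58, edgeR adjusted p = 0.016), where calls over all genes in these classes were 267, against 14 in the main fits. Cd9 in oligodendrocyte-like nuclei was 96.3 and 126 against 165 and 190 CPM (log2 0.60, SE 0.18, edgeR adjusted p = 0.38). Without 3M-2, which leaves only 3M-1 at 3 months, these log2 differences were 2.02 and 0.73. Both 6-month values of Gpnmb were also above both 3-month values in excitatory (means 0.298 and 0.845 CPM) and inhibitory neuron-like nuclei (8.96 and 11.2 CPM). For Axl this held in oligodendrocyte-like (0.203 and 1.32 CPM) and excitatory neuron-like nuclei (0.0863 and 0.265 CPM). It did not hold in the remaining classes. The share of all genes with such an order in these classes was not computed.

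Shares of microglia-like nuclei with a UMI were compared after each nucleus was thinned to 1000 UMIs, which left out 24, 77, 28 and 6 shallower nuclei. Mertk was found in 86.2%, 80.4%, 84.0% and 82.6% of the thinned nuclei, against at most 0.627% of oligodendrocyte-like and 0.417% of excitatory neuron-like nuclei in any library, and in 65.8% to 79.2% of astrocyte-like and 14.7% to 32.9% of OPC-like nuclei. Cd9 was found in 20.1%, 18.5%, 19.2% and 20.4%, and Pros1 in 19.9%, 19.6%, 20.2% and 16.8%. The ages overlapped for Mertk and Cd9, and the difference of the means turned with the depth of thinning for both.

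Axl was found in 4.22%, 3.77%, 9.75% and 7.44% of thinned microglia-like nuclei, with Wilson 95% intervals of 2.68 to 6.56%, 2.06 to 6.81%, 7.64 to 12.4% and 5.47 to 10.0%. The interval of 6M-1 overlapped neither 3-month interval, and that of 6M-2 overlapped both. Itgax was found in 1.87%, 1.51%, 3.14% and 2.94%, and Gpnmb in 0.703%, 0.755%, 1.65% and 2.15%. For all 3 genes both 6-month shares were above both 3-month shares. The exact two-sided permutation test over 4 libraries gave p = 0.333, the smallest p that 2 libraries against 2 allow. Any gene whose ages do not overlap gives that p. How many of all genes have such shares was not computed, and in CPM 20.9% of the genes tested had both 6-month values above. The intervals of the ages overlapped for Itgax and Gpnmb in every pair of libraries.

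Spp1 was found in 0 of 427 thinned nuclei of 3M-1, which allows a share of up to 0.703%, and in at most 0.783% elsewhere. Lgals3 was found in 0.377% to 1.65%, and Gas6 in 2.94% to 3.98%, close to the 2.44% to 3.45% of excitatory neuron-like nuclei. Itgax in oligodendrocyte-like nuclei was 0% after thinning, and at most 0.0376% in excitatory neuron-like nuclei. Without thinning the microglia-like shares were higher, such as 2.05% to 5.85% for Itgax, 5.56% to 14.7% for Axl and 87.7% to 93.8% for Mertk, with median depths between 1484 and 2248 UMIs. Medians were 1650 to 2837 UMIs in oligodendrocyte-like and 7634 to 11375 in excitatory neuron-like nuclei. Intervals and floors cover counting error only.

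Of the 1943 microglia-like nuclei, 1792 had no UMI of Itgax, Gpnmb, Spp1 or Lgals3, 132 had UMIs of 1 of the 4, 14 of 2 and 5 of 3 of them, before thinning. DAM-gated nuclei were 19.6%, 65.9%, 85.7% and 100% of these 4 groups. The gate and the groups both count UMIs, which are more in deeper nuclei. DAM-gated nuclei were deeper (median 2264 against 1754 UMIs), and the part of depth in these shares was not tested. Of the 46 thinned nuclei with an Itgax UMI, 17 (37.0%) also had one of Cd9, against 19.2% of the 1762 without. By library the 17 were 4, 0, 3 and 10 nuclei, so 6M-2 alone held most of them. For Gpnmb the shares were 6.52% (3 nuclei) and 1.31%, for Lgals3 6.52% (3 nuclei) and 0.738%, for Spp1 4.35% (2 nuclei) and 0.397%, and for Axl 6.52% (3 nuclei) and 6.92%. Of the 26 with a Gpnmb UMI, 11 (42.3%) had one of Cd9, against 19.3% of those without, and 3 (11.5%) had one of Itgax, against 2.41%. Nuclei of a library share their source and numbers are small, so these shares are given with no test.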

How the data were processed

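Single-nucleus RNA-seq (10x Genomics 3′ v3.1) of sorted DAPI-positive cortical nuclei from 4 GCLC-KO mice was analysed. The deposited values are unnormalized UMI counts, one matrix per library, which the authors made with Cell Ranger 7.0.0 per the file headers, on mm10 per the submitters' processing notes. Nuclei with more than 7000 genes or over 1% mitochondrial UMIs were dropped, as in the study. A nucleus was put in the class with the largest share of its markers detected, given at least 3 markers and a marker level, relative to the class's typical level, at least 2 times that of every other class. Gate thresholds were set after values had been seen, and the members and lists were chosen with earlier results of these data known. Doublets called by Scrublet (scanpy 1.11.5) were kept where the gate kept them, 15 of 1943 microglia-like nuclei, and left out as an alternative. Classes with fewer than 10 nuclei in a library were not summed.

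UMIs were summed per library and class and tested with edgeR 4.0.16 (TMM, filterByExpr, quasi-likelihood test; R 4.3.3) with p-values adjusted by Benjamini-Hochberg across the genes tested, at a threshold of 0.05. Class and DAM-gate comparisons had the library as a block, and ages had none. The scripts were tested on simulated data. DESeq2 1.42.0, other size factors, no filter on low counts, each library left out, other gates, thinning and, added after seeing the data, library sizes alone and a gate without a margin were alternatives. CPM were computed from the sums, with 95% Poisson intervals. The labels do not say more of the replicates than 1 mouse per library, and batch numbers pair them across ages. The deviations of same-numbered libraries correlated over genes at 0.01 in microglia-like and −0.10 in excitatory neuron-like nuclei. GENCODE M21 (GRCm38) held 32235 of the 32285 identifiers, the 9 measured members included. Named list genes are up to 4 per list with the largest fold change past the threshold, and per member the 3 most alike genes. Promoters are from RefSeq, GRCm38.p6.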

Additional observations from a re-analysis of the deposited data

Results flagged for a closer look

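Among 25 sets of 4 library log2 ratios with at least 4 UMIs behind every value, 2 had a library far from the other 3 by Dixon's criterion, which chance meets in about 1 in 20 sets. The log2 ratio of Mertk in microglia-like over inhibitory neuron-like nuclei was 10.17 in 3M-1, against 8.78 to 9.0 in the others. The log2 ratio of Pros1 in microglia-like over OPC-like nuclei was 1.86 in 6M-2, against 3.00 to 3.17.

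Nuclei that no class took, 4919 of 30515, entered no comparison and held UMIs of every member: 28.8% of those of Itgax, 27.7% of Cd9, 23.9% of Gpnmb, 30.5% of Spp1, 22.8% of Lgals3, 29.8% of Axl, 25.7% of Mertk, 15% of Gas6 and 21.8% of Pros1. These nuclei had 1.55 CPM of Itgax and 110 CPM of Mertk, below the microglia-like nuclei of every library.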

How the results depend on the processing

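All edgeR and DESeq2 values here are log2 differences unless counts or percentage points are named. The count of members past the threshold kept within 1.5 times for the class and DAM-gate comparisons in the alternatives run, and the 4 members called under the DAM gate passed in each. For age in microglia-like nuclei, 2 members passed with no filter on low counts, 2 with the replicate block, and 0 to 3 with a library left out. All genes called there, 26, became 146 with no filter, 151 with the replicate block, 68 with a stricter gate, 0 with graph clusters (edgeR, 686 at an unadjusted p under 0.05) and 19 to 720 with a library left out. In the other classes 1 pair passed with no filter and 0 to 5 with a library left out, and for the DAM difference between ages 0 to 1 member did. The replicate block changed no other member's call between the ages. Each fit between the ages with a library left out has only 1 library at an age. In the other classes every such fit also called more genes in all than the 14 of the main fits. The member counts from fits with a library left out are thus not read as results about the members.

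All genes called in DAM-gated nuclei, 686, became 257 with DESeq2, 321 with no library block, 1176 with graph clusters and 354 to 680 with a library left out. List genes called there, 23, became 15 with no library block. List genes called between the ages, 1, became 6 with no filter, 2 with DESeq2, 6 with the replicate block, 3 without Scrublet doublets, 4 with a stricter gate, 2 with a gate without a margin, 0 with graph clusters (11 of 81 at an unadjusted p under 0.05) and 1 to 20 with a library left out.

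Some differences near 0 changed sign. Cd9 over OPC-like nuclei was 0.012 with DESeq2, 0.092 with a stricter gate, 0.22 with library sizes only and −0.24 to 0.072 with a library left out. Gas6 over excitatory neuron-like nuclei was 0.20 with library sizes only. Axl over astrocyte-like nuclei was −0.23 to 0.48 and Mertk between the ages −0.23 to 0.18 with a library left out. In DAM-gated nuclei Gas6 was −0.43 with the gate on thinned nuclei, and Pros1 was 0.0090 with library sizes only, 7.7e-04 without Scrublet doublets, 1.3e-04 with a stricter gate and −0.14 to 0.087 with a library left out. The change in the share of nuclei with a UMI was, for Cd9, −1.49 percentage points at 500 UMIs and −0.378 to 1.27 with a library left out, for Mertk 1.58 unthinned, 0.255 at 500 UMIs and −2.91 to 2.90 with a library left out, for Gas6 0.328 at 500 UMIs, and for Pros1 −2.93 to 0.401 with a library left out. Apart from the scaling, the cause of these changes was not tested. With 2 libraries per age, 1 library decided many calls, 3M-2 most of all, and Spp1 and Lgals3 were too sparse to be tested in the main fits between classes.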

Other observations

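In 29 nuclei gated as mural or fibroblast-like over the 4 libraries, too few for sums, Axl had 7 UMIs in 7 nuclei (158 CPM, Poisson 95% interval 63.4 to 325) and Spp1 5 UMIs in 3 nuclei (113 CPM, 36.6 to 263). Itgax, Cd9, Gpnmb, Lgals3 and Gas6 had 0 UMIs there, with a Poisson 95% upper limit of 83.1 CPM. In 6 perivascular macrophage-like nuclei Mertk had 7 UMIs in 4 nuclei (754 CPM, 303 to 1553), and Gpnmb and Itgax had none. In 15 endothelial-like nuclei Cd9 had 4 UMIs in 4 nuclei (149 CPM, 40.6 to 381).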
